A study of Mus musculus with 27 samples.

Results

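Methyl groups on lysine 4 of histone H3 (H3K4) mark promoters and enhancers, and 2 enzyme families remove them. The KDM5 family (Kdm5a, Kdm5b and the X-linked Kdm5c, with the Y-linked Kdm5d in males) uses a JmjC domain, iron and 2-oxoglutarate to strip trimethyl and dimethyl groups, while the LSD family (Kdm1a, also called LSD1, and Kdm1b, also called LSD2) uses flavin and acts on dimethyl and monomethyl groups. In liver, Kdm5b and Kdm5c have been studied for a part in inflammation and fibrosis. Described here are the transcript levels of 5 members, Kdm5a, Kdm5b, Kdm5c, Kdm1a and Kdm1b, of 17655 genes listed in any deposited table; they were taken by gene symbol, and all 5 had counts in all 27 libraries.

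The study deleted Kdm5b in mice with alcohol-associated liver disease and sequenced whole-liver RNA from 27 mice in 9 groups of 3. All mice, controls included, were Kdm5b fl/fl, so that the gene stays intact until Cre recombinase is supplied by an adeno-associated virus (AAV). Mice given a control AAV are called WT, mice given CMV-Cre, which is not restricted to a cell type, KO, and mice given TBG-Cre, whose promoter is active in hepatocytes, HepKO. WDA mice of both sexes received the vector and a Western diet plus alcohol for 8 weeks. Res mice of both sexes had 16 weeks of WDA, then the vector, then 4 weeks of resolution, which the study's methods describe as chow and plain water. These times are the labels'; the study's text gives a longer WDA feeding before resolution. HepKO mice were WDA females only, and they share their WT controls with the KO females. The study describes a control AAV for each promoter. The labels do not name the promoter of the control AAV used here. The switch from Western diet to chow, feeding time, vector timing and the experiment number in the labels change together with stage. So do the time from the start of feeding to harvest, and age with it if feeding began at a like age. The study also describes a surgical liver biopsy before resolution. These cannot be told apart. The labels give no age and no pairing of mice between groups.

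Libraries summed to between 14634602 and 19388251 estimated counts, with a median of 17944536. Expression is given as CPM, counts scaled to library size by TMM, which compares libraries, or as the deposited FPKM, which corrects for gene length and also compares genes. In whole liver, fewer cells of a type and less RNA per cell cannot be told apart. Kdm5d, Uty, Ddx3y and Eif2s3y, all Y-linked, had at most 28 counts in any female and at least 178 in any male, and Kdm6a, Ddx3x and Eif2s3x, X-linked genes that escape X inactivation, were higher in females (adjusted p = 2.28e-06, 1.04e-05 and 2.12e-07). KO Res male mouse 5 had the highest Kdm6a (25.1 CPM against a median of 18.3 in the other males) and Ddx3x (256.7 against 191.1). It also had the lowest Uty (11.3 against 15.6), Ddx3y (37.9 against 60.1) and Kdm5d (10.8 against 15.04). The X-linked Kdm5c went the other way and was lowest in mouse 5 (53.2 against 60.6). Eif2s3x and Eif2s3y were lowest in KO WDA male mouse 17 (84.1 and 23.7 CPM). These values are given as measured, and results without mouse 5 stand beside those that change. In 6 libraries the summed cholangiocyte markers passed 100 CPM: WT WDA female mouse 7 (470 CPM), KO WDA male mice 17 (533) and 18 (106), WT Res female mouse 13 (237), KO Res male mouse 5 (199) and WT Res male mouse 9 (156). Of the 6 markers, Krt19 and Krt7 were each at 0 counts in 1 library, and the other 21 libraries had sums of 16.4 to 73.0 CPM.

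On the GRCm38.p6 assembly (RefSeq genes), Kdm5b, gene ID 75605, lies at chr1:134560178-134632878. Kdm5a (214899) is at chr6:120364099-120444574, Kdm5c (20591) at chrX:152233198-152279102, Kdm1a (99982) at chr4:136550533-136602787 and Kdm1b (218214) at chr13:47043373-47085279. The measurement is a count over all exons of a gene, so it includes any transcript that is still made after Cre removes the floxed exons. Kdm5b overlaps Mgat4e over 1569 bases, and Mgat4e had at most 0.117 CPM in any library. Kdm1a overlaps Luzp1 over 4193 bases and Luzp1 ranged from 16.97 to 36.4 CPM, Kdm1b overlaps Dek over 513 bases and Dek ranged from 25.5 to 47.8 CPM, and Kdm5a overlaps Ccdc77 over 271 bases and Ccdc77 had at most 2.74 CPM. The use of strand in counting is not given in the sources used here, and how reads in the overlaps were assigned was not tested.

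The KDM5 genes are related in sequence, which bears on whether reads can be assigned to one of them. Over aligned bases of the longest coding transcripts (GENCODE M21, GRCm38), Kdm5b was 66.0% identical to Kdm5a and 64.2% to Kdm5c, and the closest pair, Kdm5c and Kdm5d, was 77.7% identical. No window of 50 bases in the coding sequence of any of the 5 members or of Kdm5d occurred in a transcript of another gene, on either strand, and the longest run of identical bases between Kdm5c and Kdm5d was 35. A stretch of 76 bases within exon 23 of 26 of both genes, read from GENCODE, shows how the pair differ; it covers their longest identical run that has 25 bases of the same exon on each side (26 bases), and capitals mark the 8 bases that differ. It lies at chrX:152271380-152271455 and chrY:941592-941667, plus strand, 5′ to 3′.
Kdm5c: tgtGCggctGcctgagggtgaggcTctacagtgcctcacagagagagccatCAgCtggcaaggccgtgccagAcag
Kdm5d: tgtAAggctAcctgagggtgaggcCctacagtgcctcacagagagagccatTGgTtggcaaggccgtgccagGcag

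Per length, Kdm5c was the most abundant of the 5 members in all 27 libraries, from 5.99 to 15.3 FPKM with a median of 8.74. It made up 29.2% to 44.4% of the summed FPKM of the 5. Kdm1b followed with a median of 6.06 FPKM (4.31 to 7.94) and Kdm1a with 4.15 FPKM (3.02 to 10.8). Kdm1b exceeded Kdm1a in 23 of 27 libraries. Kdm5a, at a median of 3.37 FPKM (2.13 to 4.59), and Kdm5b, at 3.09 FPKM (1.12 to 7.01), were not separated from each other: Kdm5a was higher in 15 libraries and Kdm5b in 12. Among 11745 genes with a mean of at least 0.5 FPKM in WT mice, the WT mean of Kdm5b (3.68 ± 1.12 FPKM, SD, n = 12) stood above 35.2% of genes and that of Kdm5c (10.02 ± 2.78 FPKM) above 62.0%. The counts behind these levels ran from 131, for Kdm5b in KO Res male mouse 6, to 1770, for Kdm5c in WT Res female mouse 12.

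**Figure D1:**
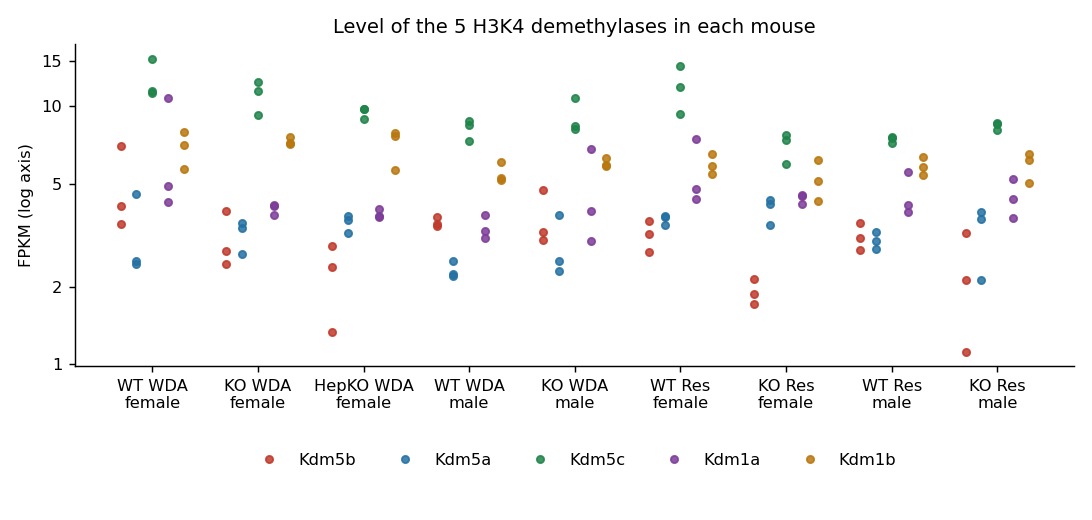
FPKM (log axis) of the 5 H3K4 demethylases in each of the 27 mice, by group of 3; each point is 1 mouse. Kdm5c lies above the other 4 genes in every mouse, and the lowest Kdm5b values, 1.12 and 1.34 FPKM, are in a KO Res male and a HepKO female.

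Kdm5b, the targeted gene, had a lower mean CPM in Cre-treated than in control livers in every sex and stage, although the WDA males had the opposite order in mean FPKM (KO 3.68, WT 3.55), and transcripts remained in every mouse. In WDA females the WT mice had 21.4, 25.2 and 31.2 CPM and the KO mice 24.1, 15.9 and 14.5 CPM. The groups overlapped because of KO mouse 1, which retained 92.8% of the WT mean; mice 2 and 3 retained 61.1% and 55.7%. In WDA males the WT mice had 24.9, 23.5 and 24.4 CPM and the KO mice 21.9, 22.0 and 20.6 CPM. Those groups did not overlap, yet the KO males kept 84.8% to 90.7% of the WT mean, the smallest loss of the 4 strata in CPM. These percentages are of whole-liver RNA and do not give the share of cells that lost the gene. The study examined KDM5B protein by immunohistochemistry, which was not compared here.

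In Res females the WT mice had 16.6, 17.4 and 17.3 CPM and the KO mice 12.3, 13.2 and 10.7 CPM, or 70.3% ± 7.36 (SD, n = 3) of the WT mean. In Res males the WT mice had 18.8, 19.3 and 19.7 CPM and the KO mice 12.8, 17.2 and 7.93 CPM, or 65.7% ± 23.98 (SD, n = 3). WT and KO did not overlap in either sex, and the spread in Res males ran from mouse 5, at 89.2% of the WT mean, to mouse 6, at 41.2%.

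**Figure D2:**
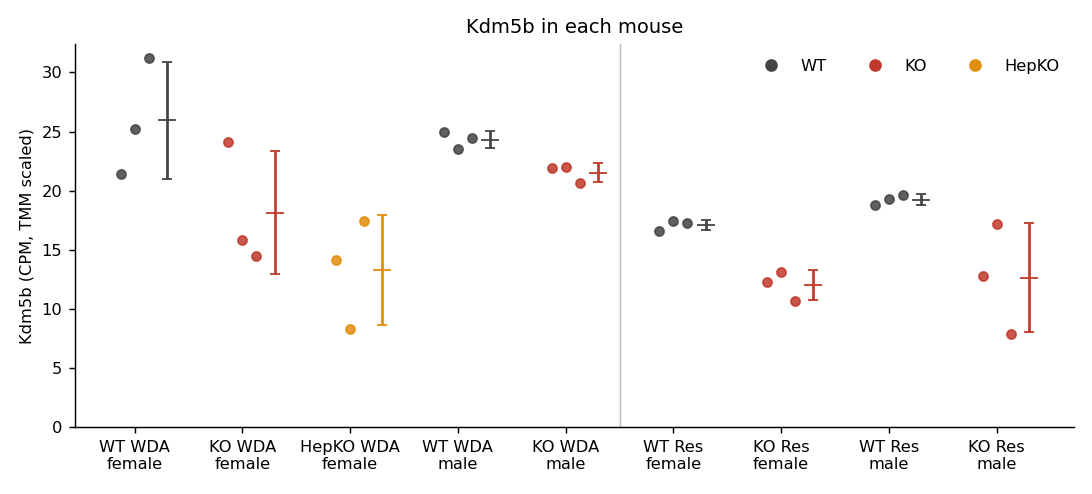
Kdm5b in CPM in each mouse, with the mean and SD of each group of 3 beside the points; the line separates WDA from Res. KO mice sit below all WT mice of their sex and stage except KO WDA female mouse 1, and the Res groups sit below the WDA groups with the same vector and sex.

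Averaged over the 4 strata, Kdm5b was lower in KO mice with a log2 fold change of -0.45 (SE 0.10). The adjusted p was 0.109 (edgeR quasi-likelihood test, Benjamini-Hochberg over 13519 genes), so the targeted gene did not pass 0.05 in that test; its unadjusted p was 0.000281. The same fit called 2 genes, 0.0148% of those tested, both lower in KO, named here after their values were seen: Ints6, a subunit of the Integrator complex (log2 fold change -0.66), and Trmt1l, a relative of a tRNA methyltransferase (-0.71). None of the 5 members was called by edgeR or by limma on FPKM, while DESeq2 called 1, Kdm5b (adjusted p = 0.0119), among 118 of 17555 genes. At an unadjusted p under 0.05 edgeR had 2 of 5 members and 1329 genes in all (9.83%). Without each mouse in turn the adjusted p of Kdm5b ranged from 0.0489 to 0.214; it was under 0.05 only without WT Res female mouse 1 (0.0489) or without KO Res male mouse 6 (0.049, log2 fold change -0.39). Without WT Res female mouse 1 the fit called 126 genes. All 6 cholangiocyte markers had lower estimates in KO than in WT mice in this fit, with a median of -0.64 and none called, and Kdm5b was at -0.47 without the 6 libraries highest in them. The mean was lower in KO in all 4 strata for 5.38% of genes, and 0.118% of genes had, like Kdm5b, KO entirely below WT in at least 3 of the 4.

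In fits of a single stratum's own 6 libraries none of the 5 members passed an adjusted p of 0.05 by edgeR, DESeq2 or limma, and edgeR called 0% of all genes in each of the 4 strata. At an unadjusted p under 0.05 it had 385 genes in WDA females, 958 in WDA males, 2413 in Res females and 183 in Res males. DESeq2 called 8, 13, 592 and 2 genes in the same strata, and limma on FPKM 0 in each; without WT Res female mouse 1 edgeR called 852 in Res females. With all 27 libraries sharing the spread, edgeR called 670 of 13534 genes in Res females, among them 1 of the 5 members, Kdm5c. The log2 fold change of Kdm5b was -0.54 (SE 0.24) in WDA females, -0.55 (SE 0.13) in Res females and -0.59 (SE 0.25) in Res males. In WDA males it was -0.16 (SE 0.090), and this direction depended on the scaling, since it turned to 0.06 with library totals and to 0.02 on FPKM. KO WDA male mouse 17, with 533 CPM of cholangiocyte markers, had 4.74 FPKM of Kdm5b against 3.26 and 3.03 in its group. In Res males the value was -0.90 without KO mouse 5 and -0.35 without KO mouse 6. In WDA females it was -0.36 without WT mouse 7 and -0.80 without KO mouse 1. KO below WT without overlap was found for 8.69% of genes in WDA males, 12.4% in Res females and 2.56% in Res males, and, unlike Kdm5b, for 3.83% in WDA females.

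The difference between sexes in the KO effect on Kdm5b was -0.12 (SE 0.21, females minus males, adjusted p = 0.771), and it changed sign to 0.02 without KO Res male mouse 5 and to 0.06 without the 6 libraries high in cholangiocyte markers. The difference between stages was -0.21 (SE 0.21, Res minus WDA, adjusted p = 1.0). Neither difference was distinguishable from 0 at this sample size, and edgeR called 0 of 13519 genes in both (0%), with 2350 and 433 genes at an unadjusted p under 0.05. DESeq2 called 186 and 0 genes and limma on FPKM 0 in both, and edgeR called 204 for the difference between sexes without WT Res female mouse 1.

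A ratio within a library does not depend on how libraries are scaled, so Kdm5b was also set against the geometric mean of the other 4 members. The log2 of that ratio in WT mice was between -0.47 and -0.06 in WDA females, between -0.17 and -0.13 in WDA males, between -0.88 and -0.76 in Res females and between -0.63 and -0.48 in Res males. In KO mice it was between -1.02 and -0.36, between -0.49 and -0.24, between -1.46 and -1.15 and between -1.88 and -0.71, in the same order. The KO mice were lower without overlap in 3 strata, the exception again being KO WDA female mouse 1. How many of all genes separate this way against the same 4 members was not computed. The permutation p-values that follow are for Kdm5b alone and were not adjusted over genes. The mean difference over the strata was -0.46 (exact permutation test within strata, two-sided, p = 7.5e-05, 160000 regroupings, smallest possible p 1.25e-05), and it stayed between -0.53 and -0.38 without each mouse in turn. With 1 other member at a time as reference the same exact permutation test gave from -0.35 (Kdm5c, p = 0.0086) to -0.63 (Kdm5a, p = 2.5e-05), and without the 6 libraries high in cholangiocyte markers it was -0.45 (p = 0.00375, 2400 regroupings). Within single strata some of these differences were near 0. With Kdm5c as the only reference it was -0.01 in Res females, with Kdm1a -0.06 in WDA females and with Kdm1b -0.10 in WDA males.

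In the HepKO group, Kdm5b reached the lowest mean of the WDA groups. The HepKO females had 14.1, 8.30 and 17.4 CPM, against 21.4, 25.2 and 31.2 CPM in the WT females they share with the KO comparison, which is 51.2% ± 17.8 (SD, n = 3) of the WT mean. All HepKO mice were below all WT mice, as for 8.99% of genes in that direction, and mouse 14 kept 32.0%. The log2 fold change was -0.98 (SE 0.28, adjusted p = 0.347), -0.81 without WT mouse 7 and -0.73 without HepKO mouse 14. Against the KO females it was -0.45 (SE 0.27, adjusted p = 0.909); the groups overlapped, and the value was -0.19 without KO mouse 1 and -0.20 without HepKO mouse 14. None of the 5 members was called in either HepKO comparison by edgeR, DESeq2 or limma; at an unadjusted p under 0.05 edgeR had 2 members, Kdm5b and Kdm1a, against WT (10.1% of all genes) and 0 against KO (5.74%). Without WT mouse 7, edgeR called 1 of the 5 members against WT, Kdm5a (0.51, adjusted p = 0.0412), and 349 of 12471 genes in all. Over all genes edgeR called 0 against WT (1249 at an unadjusted p under 0.05, DESeq2 204, limma 0) and 0.0162% against KO, which are Dbp and Ciart, genes of the circadian clock (DESeq2 40 genes, limma 2) named here after their values were seen.

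**Figure D3:**
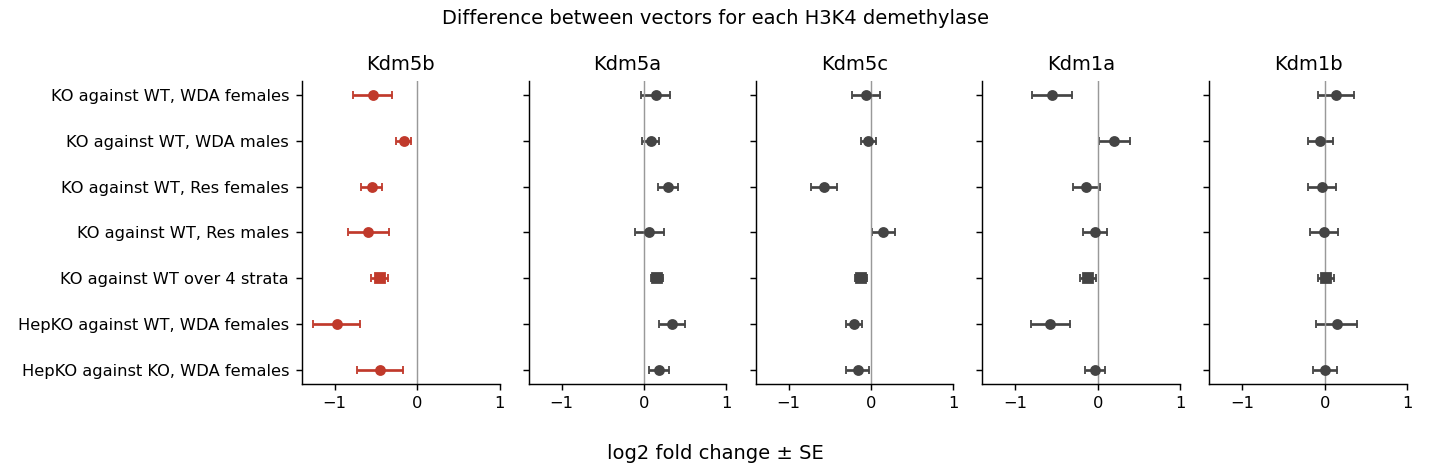
Log2 fold change with its standard error for each of the 5 members (columns) in 7 comparisons of vectors (rows), 3 mice a group; squares are the mean of the 4 strata. Kdm5b lies below 0 in all rows, from -0.98 to -0.16, while Kdm5a lies above 0 in all rows and the other genes fall on both sides.

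Kdm5a, first described as a binding partner of the retinoblastoma protein, had a log2 fold change of 0.15 (SE 0.073) in KO mice over the 4 strata (adjusted p = 0.508). In Res females, WT mice had 40.6, 34.1 and 32.6 CPM and KO mice 40.5, 47.6 and 46.5 CPM, which overlap at 1 mouse. HepKO females had 40.2, 35.9 and 39.2 CPM against 26.7, 27.4 and 36.3 CPM in WT females, where only WT mouse 7 reached the HepKO range. Over the 12 mice each, the medians were 36.01 CPM in KO and 31.7 CPM in WT.

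Kdm5c, the X-linked member known for intellectual disability when mutated in people, had a log2 fold change of -0.12 (SE 0.071, adjusted p = 0.649) over the 4 strata. In Res females the WT mice had 67.9, 95.6 and 70.1 CPM and the KO mice 49.5, 57.7 and 55.4 CPM. The KO females were all lower, with a log2 fold change of -0.57 (SE 0.16, adjusted p = 0.135 by edgeR), or -0.38 without WT mouse 12; with all 27 libraries sharing the spread the adjusted p was 0.0283. In Res males WT mice had 58.6, 56.3 and 53.4 CPM, KO mice 60.6, 53.2 and 71.3 CPM, and the log2 fold change was 0.15 (SE 0.14). The KO effect in Res females minus that in Res males was -0.66 (SE 0.20, unadjusted p = 0.00368, adjusted p = 0.19), or -0.48 without WT female mouse 12, in a contrast added after the values were seen that called 0.0592% of genes. In Res females, 26.2% of all genes separated WT from KO without overlap, and of the 5 members Kdm5b and Kdm5c did. In WDA females the 3 HepKO mice had 68.7, 67.1 and 68.4 CPM of Kdm5c, below the WT mice at 79.3, 78.2 and 76.9 CPM. That held for 8.99% of genes, and the log2 fold change was -0.21 (SE 0.099, edgeR adjusted p = 0.539). The KO mice, at 90.5, 75.6 and 61.5 CPM, lay on both sides of the WT mice.

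Kdm1a, the catalytic subunit of the CoREST repressor complex, had a log2 fold change of -0.12 (SE 0.094, adjusted p = 0.77) and Kdm1b, a LSD enzyme linked to imprinting in oocytes and to gene bodies, of 0.02 (SE 0.10, adjusted p = 0.988); the second turned to -0.05 without the 6 libraries high in cholangiocyte markers and to -0.00 with library totals. In WDA females Kdm1a was 12.2, 13.9 and 22.3 CPM in WT mice, 10.9, 11.1 and 11.6 CPM in KO mice and 10.50, 10.9 and 11.4 CPM in HepKO mice. The Cre groups both lay below all WT mice, as did 3.83% of genes for KO and 8.99% for HepKO, and mouse 7 was far above the other WT mice. Kdm1b ranged in the same groups from 18.1 to 33.9 CPM in WT, from 29.3 to 31.1 in KO and from 24.3 to 35.0 in HepKO, so the groups overlapped.

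Stage gave the clearest difference for Kdm5b. It was lower in Res than in WDA mice in all 4 pairs of groups that share vector and sex, each without overlap, as was true for 1.21% of genes. WT females went from 21.4 to 31.2 CPM in WDA to 16.6 to 17.4 CPM in Res, and WT males from 23.5 to 24.9 CPM to 18.8 to 19.7 CPM. KO females went from 14.5 to 24.1 CPM down to 10.7 to 13.2 CPM and KO males from 20.6 to 22.0 CPM down to 7.93 to 17.2 CPM. The order held with the control vector and with Cre. The log2 fold change over the 4 strata was -0.57 (SE 0.10, adjusted p = 0.000421, edgeR quasi-likelihood test), in a fit that called 29.8% of 13519 genes, 15.7% lower and 14.1% higher. It passed 0.05 without each mouse in turn (-0.645 to -0.51, adjusted p at most 0.00129) and in each of the 9 other settings (-0.62 to -0.41, adjusted p at most 0.01). The 12 WDA mice had a median of 22.8 CPM and the 12 Res mice 16.9 CPM.

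Kdm5a was higher in Res. The 12 WDA mice ranged from 26.5 to 36.3 CPM with a median of 29.7, and the 12 Res mice from 26.9 to 47.6 CPM with a median of 37.0. Groups did not overlap for WT males (26.5 to 30.0 against 31.1 to 36.6 CPM) and KO females (29.3 to 36.2 against 40.5 to 47.6 CPM), and overlapped for the other 2 pairs; 13.5% of genes were higher without overlap in at least 2 pairs. The log2 fold change was 0.28 (SE 0.073, adjusted p = 0.00732). The adjusted p was 0.102 on FPKM and 0.0847 with library totals, with values of 0.27 in both. Kdm5a and Kdm5b were thus called in opposite directions in the same edgeR fit, 2 of the 5 members. That fit called 29.8% of all genes, 14.1% higher and 15.7% lower.

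For the other 3 members the stage difference did not pass 0.05 by edgeR. Kdm5c had a log2 fold change of -0.18 (SE 0.071, adjusted p = 0.068) and passed on FPKM (-0.24, adjusted p = 0.0358); its Res groups were below its WDA groups without overlap in WT males (53.4 to 58.6 against 60.5 to 67.7 CPM) and KO females (49.5 to 57.7 against 61.5 to 90.5 CPM), and 14.1% of genes were lower without overlap in at least 2 pairs. Kdm1b had -0.17 (SE 0.10, adjusted p = 0.201) and Kdm1a 0.08 (SE 0.094, adjusted p = 0.586). Kdm1a was higher without overlap in WT males (12.2 to 14.5 against 10.2 to 12.0 CPM) and KO females (12.2 to 13.8 against 10.9 to 11.6 CPM), 2 pairs, the number that 13.5% of genes reached or passed. Lymphocyte and neutrophil markers moved with stage in the same fit, with 4 of 5 tested higher in Res (Cd3e, Cd8a, Cd79a and S100a8), and their summed level was 12.1 to 34.6 CPM over WDA mice and 15.3 to 44.5 CPM over Res mice; Ly6g was at 0 in 13 libraries. Endothelial markers had 2 of 6 higher and hepatocyte markers 1 of 8, and none of the 9 Kupffer, 8 stellate or 6 cholangiocyte markers passed. The part of these cells in the Kdm5b and Kdm5a differences was not tested.

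By sex, Kdm5c was higher in females than in males among WT mice. WT WDA females had 79.3, 78.2 and 76.9 CPM against 67.7, 64.7 and 60.5 CPM in males, and WT Res females had 67.9, 95.6 and 70.1 CPM against 58.6, 56.3 and 53.4 CPM. The sexes did not overlap at either stage, as was true in that direction for 1.55% of genes. In WT mice alone, a contrast added after the values were seen, the log2 fold change was 0.38 (SE 0.10, adjusted p = 0.0427 by edgeR, in a fit that called 3.23% of genes); 17 of 24 leave-outs of 1 mouse brought the adjusted p above 0.05, up to 0.133 without WT Res female mouse 12, where the value was 0.29. It was also above 0.05 with no filter on low counts (0.39, adjusted p = 0.0515) and without the 6 libraries high in cholangiocyte markers (0.41, adjusted p = 0.0655). In this contrast all 6 cholangiocyte markers had higher estimates in females (median 1.32), as had 7 of 8 stellate and scar markers (median 0.51), with none called; their part in the Kdm5c difference was not tested. Over all 4 strata it was 0.21 (SE 0.071, edgeR adjusted p = 0.0583, DESeq2 adjusted p = 0.0376), with 11.3% of genes called. The KO groups overlapped between the sexes at both stages. The mean of KO females was higher than that of KO males in WDA (75.8 against 62.3 CPM) and lower in Res (54.2 against 61.7 CPM). The KO effect differed by -0.33 (SE 0.14, females minus males, edgeR unadjusted p = 0.031, adjusted p = 0.25). In the fit over 4 strata all 6 cholangiocyte markers had instead lower estimates in females, with a median of -0.76 and none called; without the 6 libraries highest in them Kdm5c was at 0.19 (adjusted p = 0.157).

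Males also expressed Kdm5d, the Y-linked copy, at 178 to 355 counts and 2.14 to 3.88 FPKM, while 11 of 15 females had 0 counts and the highest had 4. Kdm5d made up 21.4% to 30.9% of the summed FPKM of Kdm5c and Kdm5d in males. With both genes added, males had 9.46 to 14.6 FPKM with a median of 10.9, and females 6.01 to 15.3 FPKM with a median of 9.72. The summed level of the pair therefore overlapped between the sexes, and the lowest sums, 6.01 to 7.80 FPKM, were those of KO Res females.

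**Figure D4:**
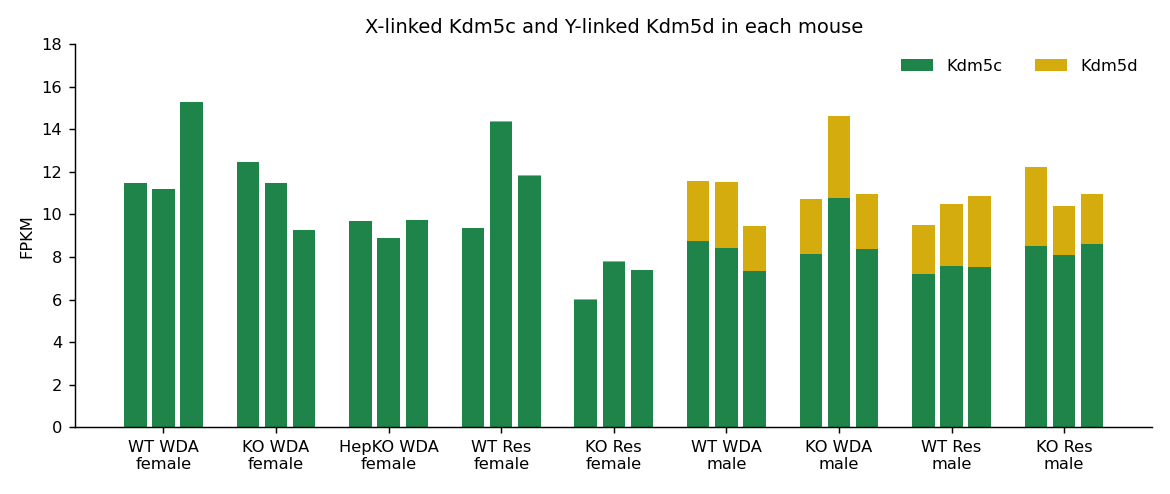
FPKM of X-linked Kdm5c and Y-linked Kdm5d stacked for each mouse, 3 bars a group, females on the left and males on the right. Kdm5d appears in every male at 2.14 to 3.88 FPKM and is at or near 0 in females, and the KO Res females have the shortest bars.

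The other 4 members did not differ between the sexes past an adjusted p of 0.05. Kdm5a had a log2 fold change of 0.19 (SE 0.073, females minus males, adjusted p = 0.107) and Kdm1a of 0.15 (SE 0.094, adjusted p = 0.371). Kdm5b was at -0.10 (SE 0.10, adjusted p = 0.628) and turned to 0.02 on FPKM and to 0.00 with library totals, and Kdm1b was at -0.00 (SE 0.099, adjusted p = 0.994) and turned to 0.10 on FPKM and to 0.11 with library totals. Of the 5 members, edgeR called none and had 2 at an unadjusted p under 0.05 (24.5% of all genes). DESeq2 and limma on FPKM each called 1, Kdm5c, among 1822 of 17555 and 1893 of 11728 genes called in all.

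Kdm1a tended to be high in the libraries with high cholangiocyte markers. In 5 of the 6 libraries with over 100 CPM of these markers it was the highest of its group of 3: 22.3 CPM in WT WDA female mouse 7 against 12.2 and 13.9, 16.9 in WT Res female mouse 13 against 12.4 and 12.4, and 14.8 in KO WDA male mouse 17 against 9.51 and 12.5. The margins were smaller in WT Res male mouse 9 (14.5 CPM against 12.5 and 12.2) and KO Res male mouse 5 (13.2 against 12.4 and 12.2). The exception, KO WDA male mouse 18, shares its group with mouse 17 and had 12.5 CPM, so 5 of 6 was the most any gene could reach. The share of all genes that reach it was not computed. Kdm5b was highest of its group in 4 of the 6, Kdm5a in 2, and Kdm5c and Kdm1b in 1 each. In mouse 7, Kdm1b was instead the lowest of its group, at 18.1 CPM against 30.4 and 33.9. No correlation is given, and the part of cholangiocytes in these levels was not tested.

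**Figure D5:**
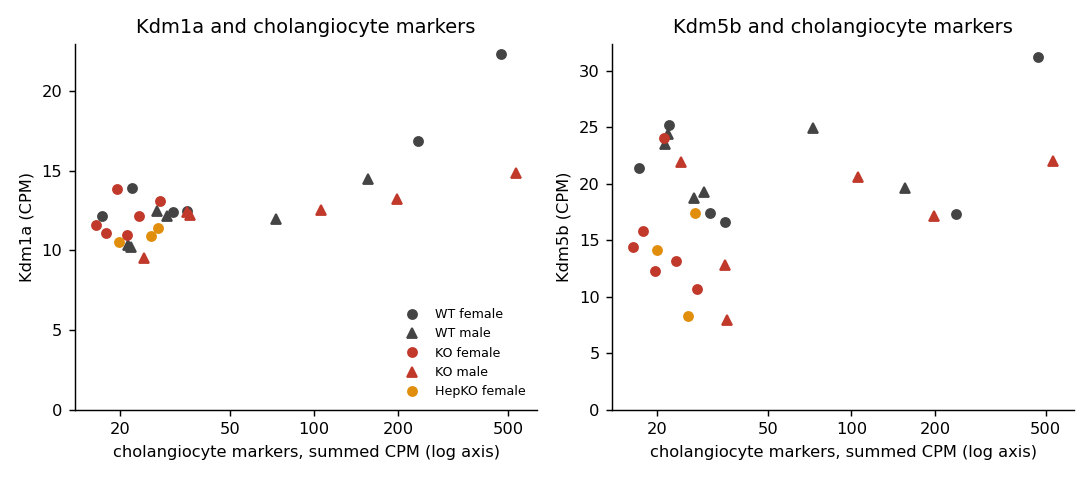
Kdm1a (left) and Kdm5b (right) in CPM in each of the 27 mice against the summed CPM of 6 cholangiocyte markers (log axis); circles are females and triangles males. The 2 highest Kdm1a values, 22.3 and 16.9 CPM, are in WT females with 470 and 237 CPM of these markers.

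The partners and counterparts of the demethylases were read from 5 lists, H3K4 methyltransferases, COMPASS and MLL complex subunits (the scaffold that carries those methyltransferases), LSD1-CoREST and REST partners, KDM5-associated repressor proteins, and other JmjC demethylases and hydroxylases, with 81 different genes of which 75 were tested. In KO against WT over 4 strata edgeR called 0 of them, and DESeq2 and limma also called 0. By edgeR 8 of the 75 had an unadjusted p under 0.05, as had 9.83% of all genes. The median log2 fold change was -0.01 against 0.00 over all genes. In Res against WDA 22 were higher and 3 lower, 33.3% of those tested against 29.8% of all genes. Of all genes, 14.1% were higher and 15.7% lower. The median was 0.09 against 0.00. On FPKM 12 were higher and 2 lower, 18.7% against 25.6% of all genes. The lists also lay above the share of all genes under DESeq2 (32.1% against 24.4%) and without a filter (28.4% against 21.7%). The same held with other scaling factors and with 27 libraries sharing the spread. With library totals they lay below it (18.7% against 24.6%), as on FPKM. By list, 3 of 7 methyltransferases were higher and none lower, 7 of 14 COMPASS and MLL subunits were higher and 1 lower, 6 of 16 CoREST and REST partners higher and 1 lower, 1 of 16 KDM5-associated proteins higher and none lower, and 6 of 23 other JmjC genes higher and 1 lower.

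Of the listed genes called, the 5 with the highest stage differences were as follows. Kmt2b, an H3K4 methyltransferase, went from a median of 26.2 CPM in the 12 WDA mice to 43.6 in the 12 Res mice (log2 fold change 0.60, adjusted p = 0.000497). Paxip1, a subunit of the Kmt2c and Kmt2d complexes, went from 14.4 to 19.7 CPM (0.55). Phf21a, the CoREST subunit that reads unmethylated H3K4, went from 13.3 to 20.8 CPM (0.54), while Kdm1a of the same complex did not pass the test. Kdm3a, a demethylase of lysine 9 of histone H3, went from 12.4 to 18.6 CPM (0.53), and Psip1, a chromatin reader that binds the MLL complex, from 12.9 to 18.7 CPM (0.52). At the other end were Jmjd8, a JmjC protein of the endoplasmic reticulum (51.1 to 31.6 CPM, -0.58), the CoREST-associated Gse1 (20.7 to 17.01 CPM, -0.40) and Dpy30, a core COMPASS subunit (13.1 to 9.81 CPM, -0.39). The smallest increases called were those of Hmg20b, a CoREST-associated HMG protein, and Ash2l, a core COMPASS subunit, each 0.16.

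Across the 27 libraries, the genes whose log2 CPM ranked most like Kdm5b among 9759 others were Cdk10 (Spearman rho 0.729), Ctnnb1 (0.725), Erc2 (0.725), Shld1 (0.714) and Usp21 (0.71). For Kdm5a they were Suco (0.893), Setd2 (0.883) and Sf3b1 (0.88), for Kdm5c Man1b1 (0.786), Tmem170 (0.706) and Fkbp9 (0.697), for Kdm1a Dkk3 (0.851), Gpx3 (0.837) and Gabbr1 (0.834), and for Kdm1b Mgll (0.85), Nectin1 (0.838) and Pnkd (0.83). The best match of Kdm5b had the lowest rho of the best matches of the 5 members. Among the members themselves rho was -0.598 for Kdm5b and Kdm5a and -0.595 for Kdm1a and Kdm1b, and the other 8 pairs lay between -0.359 and 0.386. These values are descriptions over libraries that share stage, sex, vector and scaling.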

How the data were processed

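Total liver RNA from 27 mice was sequenced on the BGISEQ platform. Per the labels and the study's methods, clean reads were aligned with HISAT to the genome (GRCm38.p6) and with Bowtie2 to reference genes; the program that estimated counts is not given in the sources used here. The authors deposited 4 tables with an estimated count and an FPKM value per gene and mouse, 1 table per sex and experiment. Up to 8.09% of the deposited counts were not whole, and they were rounded; genes missing from a table were taken as 0. The tables were joined by gene ID.

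Libraries were scaled by TMM (factors 0.852 to 1.36) and filtered with filterByExpr (minimum count 10). Comparisons used edgeR 4.0.16 quasi-likelihood tests with group means and Benjamini-Hochberg adjustment over all genes tested. Single comparisons used only their own groups, and averages over the 4 strata of sex and stage used the 24 WT and KO libraries. DESeq2 1.42.0, limma 3.58.1 on log2(FPKM + 0.1), other scalings, no filter and leaving out each mouse were alternatives. FPKM fold changes are on the log2(FPKM + pseudocount) scale. Kdm5b rested on 131 to 703 counts a library, which limits its precision, and p-values measure the spread between single mice.

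All 5 members are named; listed genes are named if called in the KO or stage fit (5 highest and 5 lowest of more than 10), and like genes are the top 3 (5 for Kdm5b) with a mean log2 CPM of at least 2. Members and lists were chosen with earlier results of these data known. Sequences came from GENCODE M21 and positions from RefSeq; protein sequences were not used here.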

Additional observations from a re-analysis of the deposited data

Results flagged for a closer look

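Kdm5c was noted because its KO mice lay on opposite sides of WT in the sexes after resolution on the FPKM scale. In Res females every KO mouse (5.99 to 7.77 FPKM) was below every WT mouse (9.34 to 14.4 FPKM), a difference of -0.73 on the log2(FPKM + 0.1) scale. In Res males every KO mouse (8.10 to 8.61 FPKM) was above every WT mouse (7.21 to 7.60 FPKM), a difference of 0.17. In CPM the Res males overlapped, and KO mouse 5, at 8.10 FPKM, had the lowest Kdm5c of all 12 males (53.2 CPM). How many of all genes separate without overlap on FPKM was not computed. The difference between the sexes was tested in the fit of 24 libraries and did not pass the adjustment over all genes by edgeR (-0.66, SE 0.20, adjusted p = 0.19) or by limma on log2(FPKM + 0.1) (-0.90, SE 0.23, adjusted p = 0.167). Without single mice the edgeR value ranged from -0.78 to -0.48 with adjusted p from 0.0645 to 0.6. Groups of 3 were not tested for outlying samples.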

How the results depend on the processing

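Of 809 recomputed values of 29 results, 736 kept their direction and their side of an adjusted p of 0.05, 22 were no longer past it, 19 newly passed it and 32 changed sign. Kdm5b in KO against WT over 4 strata passed under DESeq2 (-0.46) and ranged from -0.523 to -0.391 without single mice. Kdm5c in females against males passed under DESeq2 (0.213), on log2(FPKM + 0.1) (0.319) and log2(FPKM + 1) (0.294), with 27 libraries sharing the spread (0.212) and with library totals (0.326), and ranged from 0.168 to 0.245 without single mice. Kdm5b in females against males turned to 0.0192 and 0.0156 on FPKM with the pseudocounts 0.1 and 1 and to 0.00437 with library totals. Kdm1b in females against males turned to 0.00255 without a filter, 0.104 and 0.0923 on FPKM, 0.106 with library totals and 0.0183 without the 6 libraries high in cholangiocyte markers, and ranged from -0.0476 to 0.062 without single mice. Kdm1b in KO against WT turned to -0.0532 without those 6 libraries and to -0.000932 with library totals, and ranged from -0.0457 to 0.0627. The KO effect on Kdm5b in females minus males turned to 0.0561 without those 6 libraries and ranged from -0.249 to 0.0202. Kdm5b in WDA males turned to 0.024 and 0.0232 on FPKM and to 0.0556 with library totals. The cause of these changes was not tested.

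Genes called in KO against WT over 4 strata numbered 2, with 118 under DESeq2 and 0 to 126 without single mice; in Res females 0, with up to 754 under other settings and 852 without WT mouse 1; in HepKO against WT 0, with 349 without WT mouse 7; and in HepKO against KO 2, with up to 40. In WDA females, WDA males and Res males they numbered 0 and up to 8, 35 and 2 under other settings, and for the KO effect in females minus males 0, 186 under DESeq2 and 204 without WT Res female mouse 1. The settings without the 6 libraries and with library totals were chosen after seeing the data; the first leaves KO WDA males with 1 mouse, assumed to vary like the other groups. No paired analysis was possible because mouse numbers repeat between the experiments and mark different animals.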
